A study of Mus musculus with 18 samples.

Results

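The 52 genes described here are antiviral interferon-stimulated genes, that is, genes that type I interferon turns on and whose products sense, bind or degrade viral nucleic acid or block a step of viral growth. They were taken by symbol from a fixed list of 9 families and roles: the 6 IFIT genes, 6 OAS genes, 8 RNA and nucleic acid sensors, 4 genes of the ISG15 system, 7 MX and other direct effectors, 5 genes of the PARP group, 4 TRIM genes, 3 PML nuclear body genes and 9 other interferon-induced genes. All 52 were found among the 50600 gene IDs of the count table, and all 52 were among the 15663 genes with enough counts to test.

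The cells were mouse bone marrow-derived macrophages grown in recombinant GM-CSF over 8 days, from wild-type (WT) and IRF5 knockout (IRF5 KO) mice. IRF5 is a transcription factor of the interferon regulatory family that acts downstream of Toll-like receptors, and defactinib is a small molecule inhibitor of the kinases FAK and PYK2, the second of which is the product of Ptk2b. Cells of each genotype were left without lipopolysaccharide (unstimulated), or were given DMSO, the vehicle, for 1 h and then LPS at 100 ng/ml for 2 h (LPS DMSO), or were given defactinib at 3.5 μM for 1 h and then the same LPS for 2 h (LPS defactinib). Each of the 6 groups held 3 messenger RNA libraries, given as biological replicates and 18 in all. The labels give the unstimulated cells as DMSO-treated while the columns of the table call them untreated, so whether they received the vehicle is unsettled here. The p-values rest on the spread between libraries within groups, estimated for each gene over all 6 groups together. Libraries outside a comparison therefore enter its p-values. In bulk RNA fewer cells of a type and less RNA per cell cannot be told apart.

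LPS acts on Toll-like receptor 4, which through the adaptor TRIF and the kinase TBK1 activates the factor IRF3 and so the gene of interferon beta. Secreted interferon binds the receptor IFNAR on the same and on neighbouring cells, where a complex that holds STAT2 and IRF9 binds the interferon-stimulated response element (ISRE) in front of the antiviral genes. Some of these genes, Ifit1, Ifit2, Isg15 and Rsad2 among them, are known to be turned on by IRF3 directly as well, before any interferon is made. In macrophages the products stand ready against RNA and DNA viruses, and several of them feed back on interferon signalling itself.

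Library totals ran from 39282181 to 61949143 assigned read pairs, and the 52 genes together took 0.244% to 0.264% of them in WT unstimulated, 2.41% to 3.01% in WT LPS DMSO and 0.219% to 0.236% in IRF5 KO unstimulated. Libraries stood apart from their own groups in both genotypes. IRF5 KO LPS DMSO replicate 3 gave 0.895% of its counts to the 52 genes against 0.129% in each of replicates 1 and 2, and WT LPS defactinib replicate 3 gave 0.597% against 0.136% and 0.172%. The non-coding RNA Gm26917, which was singled out after its values were seen, was at 26817 and 26679 counts per 1000000 of the library size after TMM scaling (CPM) in IRF5 KO LPS DMSO replicates 1 and 2, at 113 in replicate 3, at 11392 to 41939 in the 6 defactinib libraries and at 47.0 to 142.5 in the unstimulated and WT LPS DMSO libraries. By this RNA, replicates 1 and 2 of IRF5 KO LPS DMSO lay with the defactinib libraries, against their label, and replicate 3 with the libraries without defactinib. Whether replicates 1 and 2 are what their label says was not settled here, so values without replicate 3 describe the libraries labelled IRF5 KO LPS DMSO 1 and 2 and may not be a response to LPS alone. Replicate 3 of IRF5 KO LPS DMSO and replicate 3 of WT LPS defactinib are called the libraries that stand apart, and comparisons that use them are given with all libraries and again with 1 or both left out. The part of the handling of these libraries in the results was not tested. The 10 macrophage markers, none at 0 in any group, had a higher sum with defactinib, carried by Lyz2 and Ctss, at 15673 to 19009 CPM against 12327 to 12946 in LPS DMSO in WT and at 20787 to 21710 against 11153 to 14452 in IRF5 KO. Mertk of the same list went the other way in WT, at 146, 182 and 124 CPM in LPS DMSO and 41.3, 37.2 and 65.2 in LPS defactinib. The markers of T cells stayed at or below 3.07 CPM, of B cells at or below 0.945 and of NK cells at or below 0.421. The sum of the 8 neutrophil markers moved with the libraries that stand apart through Ngp, Ltf and Camp, at 54.4 CPM in WT LPS defactinib replicate 3 against 17.9 and 21.5 in its group. The sum was 62.3 in the third IRF5 KO LPS DMSO library against 36.2 and 35.2, while Ly6g was at 1.09, 1.09 and 0.9002 in that group. In WT LPS DMSO the sum was 32.0, 40.6 and 67.7. The 8 dendritic cell markers summed to 76.6 to 217 CPM, with WT LPS DMSO at 148 to 187 and WT LPS defactinib at 76.6 to 90.5. Zbtb46 and Btla carried that lower sum, while Dpp4 of the same list was at 10.9, 12.996 and 10.01 in WT LPS DMSO and 30.8, 22.7 and 37.4 in WT LPS defactinib. Mast cell and basophil markers summed to 8.06 to 15.7 CPM in WT and 43.2 to 73.2 in IRF5 KO libraries. That sum was carried by Gata2, at 25.9 to 51.5 CPM in IRF5 KO, and Kit, while Fcer1a and Tpsb2 stayed at or below 0.0530 CPM. The plasmacytoid dendritic cell markers summed in WT to 54.9 to 57.6 CPM unstimulated, 126 to 154 in LPS DMSO and 48.6 to 54.7 in LPS defactinib. Tcf4 carried that course, while Siglech stayed at or below 0.168. Pacsin1 of the same list went the other way with LPS in WT, from raw counts of 1083, 1148 and 919 to 410, 429 and 502. Spib did so too, from 76, 119 and 59 to 22, 25 and 18. In WT LPS defactinib replicate 3 the sum was 52.8 CPM, within the range of its group. In IRF5 KO the sum was 64.2 to 106. The mitochondrial share of counts was 0.671% to 0.913% in WT LPS DMSO and 1.05% to 1.26% in WT LPS defactinib. It was 0.793%, 0.797% and 0.514% in IRF5 KO LPS DMSO, against 0.477% to 0.540% in IRF5 KO unstimulated and 0.835% to 0.926% in IRF5 KO LPS defactinib. The part of other cells or of RNA quality in the differences was not tested. Irf5 itself was at 587, 606 and 650.3 CPM in WT unstimulated and 335, 397 and 364 in IRF5 KO unstimulated libraries (WT over IRF5 KO log2 fold change 0.75 ± 0.16 (SE), adjusted p = 0.00492). After LPS it was near the same level in both genotypes, at 434, 475 and 443 CPM in WT and 435, 431 and 345 in IRF5 KO, with a difference of 0.16 ± 0.16 (adjusted p = 0.428) that did not pass. With defactinib it was at 213, 234 and 379 in WT and 364, 392 and 353 in IRF5 KO (-0.42 ± 0.16, adjusted p = 0.0545). The level of Irf5 therefore does not check the genotype labels, and counts over the whole gene do not check a deletion of part of it. Ptk2b was at 162, 169 and 172 CPM in WT LPS DMSO and 105, 101 and 122 in WT LPS defactinib libraries.

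LPS raised nearly the whole set in WT cells, and defactinib before LPS lowered most of it again. A gene was called when its adjusted p was under 0.05 and its change was larger than 2-fold. In WT, 51 of 52 genes were higher after LPS, where 11.6% of all genes tested were called higher, and the groups did not overlap for any of the 52 (higher without overlap: 31.8% of all genes). With defactinib, 38 of 52 were lower than in WT LPS DMSO, where 18.6% of all genes were called lower, and for 39 the groups did not overlap (31.5% of all genes). After LPS, 50 of 52 were higher in WT than in IRF5 KO, where 14% of all genes were called higher, and for all 52 the groups did not overlap (27.3% of all genes). In IRF5 KO cells LPS raised 10 of 52 (7.07% of all genes), and with replicate 3 left out 1 was higher and 11 were lower than unstimulated (9.64% and 16.6% of all genes). These comparisons share libraries: WT LPS DMSO is on a side of the first 3, and IRF5 KO LPS DMSO of the last 2. Without LPS edgeR's fit of all 6 groups called no gene of the 52 between the genotypes, and other fits called up to 9.

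**Figure D1:**
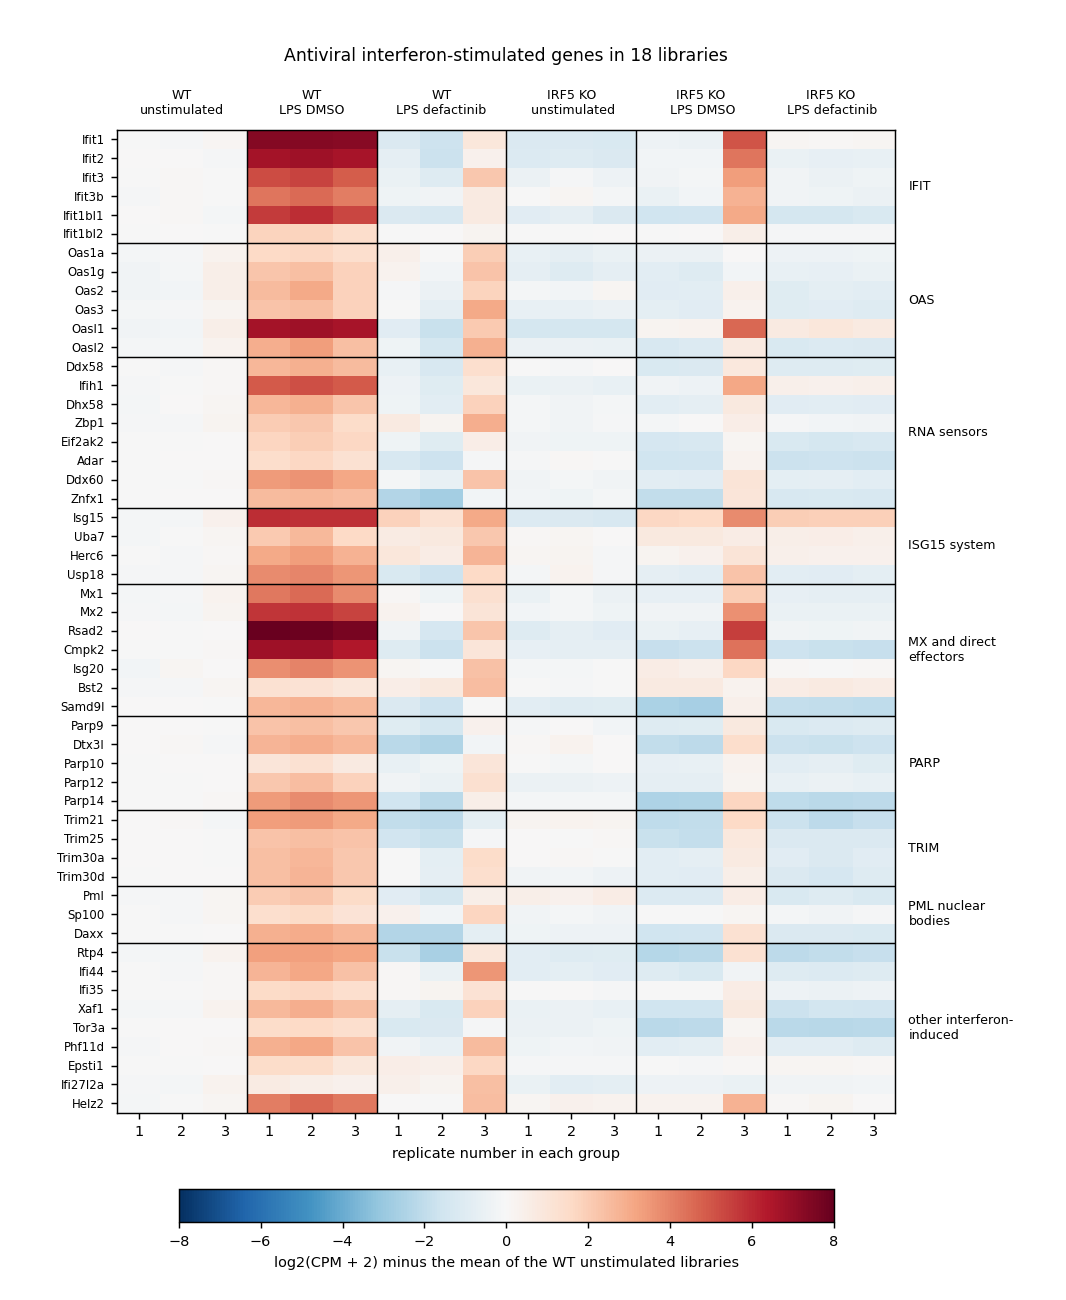
Heat map of the 52 genes (rows, grouped by family or role) in the 18 libraries (columns). Colour gives log2(CPM + 2) minus the mean of the WT unstimulated libraries for the same gene. The WT LPS DMSO libraries are the only full block of high values, and IRF5 KO LPS DMSO replicate 3 and WT LPS defactinib replicate 3 differ from the other 2 libraries of their groups.

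Promoter sequences are shown because the genes share a way of being turned on. RefSeq sequences for GRCm38.p6 (mm10), from 250 bases before to 50 bases after the start of transcription, matched 40 of the 52 genes by symbol with 52 windows of 300 bases, and 9 genes had more than 1. Those without an entry were Oas2, Dhx58, Zbp1, Usp18, Mx1, Mx2, Parp9, Parp10, Parp14, Rtp4, Tor3a and Ifi27l2a. The letters GAAANNGAAA, the core of an ISRE, or their reverse complement TTTCNNTTTC were searched on both strands. They stood in 18 of the 40 genes (45%) and in 38.5% of the 52 windows, against 3.99% of 27025 genes and 3.44% of 32851 windows in the whole table. Of the 15 GBP and IRG genes, which are also interferon-induced, 9 of the 10 with an entry held the letters, and of the early NF-kB genes of LPS-treated macrophages 0 of 21 did. The stretches below are 80 bases long, read 5′ to 3′ on the strand of the gene, and capitals mark the matches, which overlap in Isg15, Oas1a and Bst2.

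The IFIT stretches are shown for the family with the largest changes:
Ifit1, chr19:34640769-34640848, plus strand: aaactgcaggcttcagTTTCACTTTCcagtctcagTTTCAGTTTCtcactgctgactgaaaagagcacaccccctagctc
Ifit3, chr19:34583359-34583438, plus strand: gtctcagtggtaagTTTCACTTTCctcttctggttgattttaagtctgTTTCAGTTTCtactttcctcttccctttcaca
Ifit3b, chr19:34607755-34607834, plus strand: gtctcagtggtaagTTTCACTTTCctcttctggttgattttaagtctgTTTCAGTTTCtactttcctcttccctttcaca
Ifit1bl1, chr19:34602029-34602108, minus strand: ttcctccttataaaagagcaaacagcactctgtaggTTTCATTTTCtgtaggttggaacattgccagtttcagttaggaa

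These stretches belong to Isg15 and Rsad2, of strong response, to Oas1a and Bst2, of weak response, and to Ddx60, a sensor with a pair of separate matches:
Isg15, chr4:156200849-156200928, minus strand: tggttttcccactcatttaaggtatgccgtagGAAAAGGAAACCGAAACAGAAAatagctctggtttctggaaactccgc
Rsad2, chr12:26456523-26456602, minus strand: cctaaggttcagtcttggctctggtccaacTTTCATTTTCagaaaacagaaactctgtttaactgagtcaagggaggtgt
Oas1a, chr5:120907526-120907605, minus strand: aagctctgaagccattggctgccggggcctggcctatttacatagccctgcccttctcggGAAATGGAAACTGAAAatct
Bst2, chr8:71537553-71537632, minus strand: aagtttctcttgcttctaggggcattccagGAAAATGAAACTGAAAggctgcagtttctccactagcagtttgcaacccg
Ddx60, chr8:61928007-61928086, plus strand: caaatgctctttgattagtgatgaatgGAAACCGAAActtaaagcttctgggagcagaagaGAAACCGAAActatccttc

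Daxx is shown as a gene called in all 3 main comparisons whose windows held no match:
Daxx, chr17:33909325-33909404, plus strand: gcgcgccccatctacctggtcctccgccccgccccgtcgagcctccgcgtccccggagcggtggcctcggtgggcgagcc

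The 4 IFIT stretches hold the letters on the opposite strand, so they read TTTCNNTTTC on the strand of the gene. Ifit3 and Ifit3b were the same over all 80 bases shown, and the windows of Ifit1 and Ifit1bl2 overlapped by 245 bases, so these pairs are not separate observations of the letters. Across the set there were 31 matches, 18 on the strand of the gene and 13 on the other, and 25 of them began before the start of transcription, at offsets from -188 to 32. By family, the letters stood in 5 of 6 IFIT genes (not in Ifit2), 3 of 5 OAS genes, 4 of 6 sensors, 1 of 3 genes of the ISG15 system, 2 of 5 MX and direct effectors and 3 of 4 TRIM genes with an entry. They stood in 0 of 2 PARP genes, 0 of 3 PML nuclear body genes and 0 of 6 other genes. The letters TTCNNNGAA, a palindrome and the core of the gamma-activated site, stood in 7 of 40 genes (17.5%) against 9.55% of all genes. A match is a description of the sequence, and no match says only that these letters are not in this window.

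**Figure D2:**
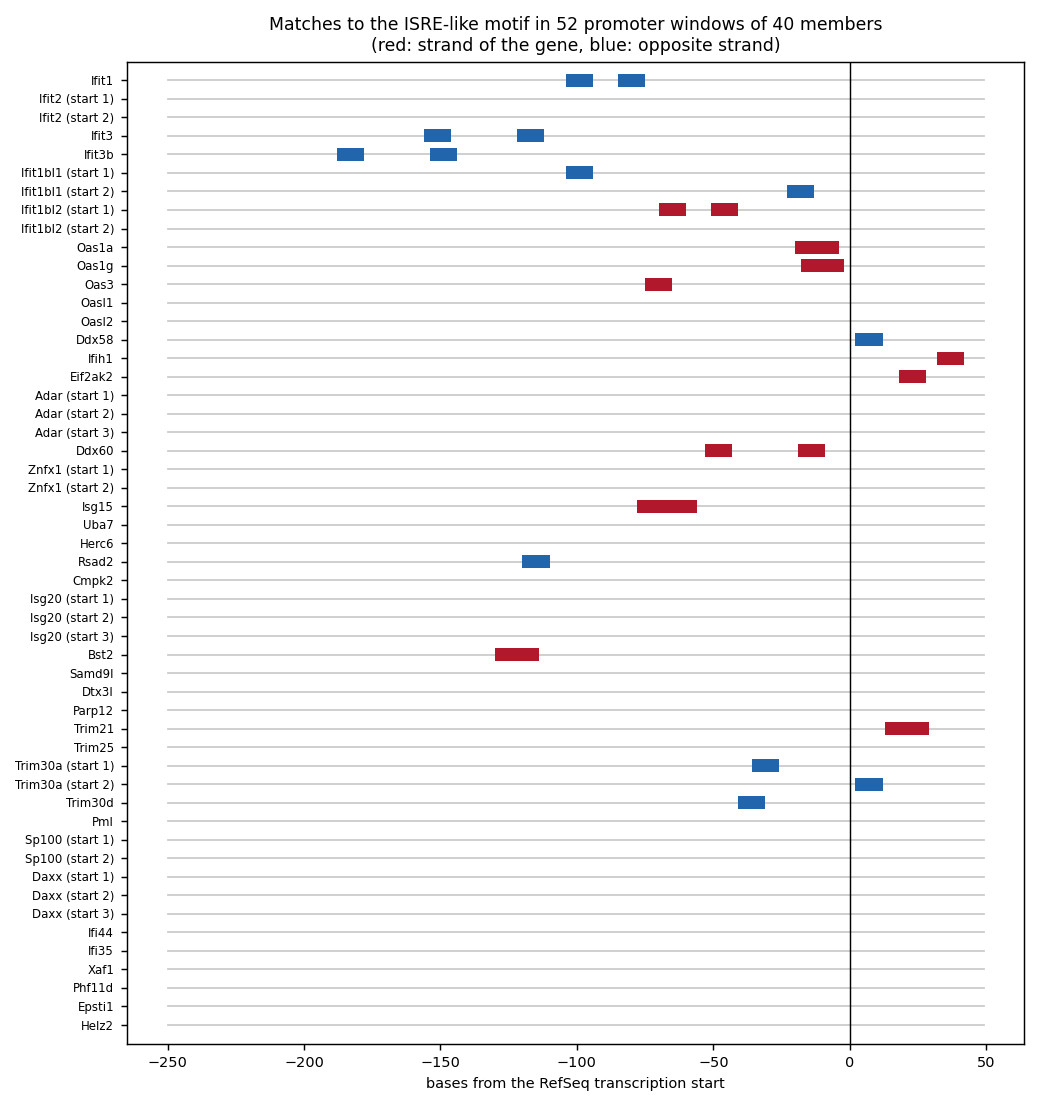
Distance in bases from the start of transcription (x axis) of each GAAANNGAAA or TTTCNNTTTC match in the promoter windows of the genes with an entry (rows, with or without a match). Red marks are on the strand of the gene and blue marks on the opposite strand, and 25 of the 31 matches lie before the start.

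The medians of the genes with and without the letters moved in the same direction. In WT the median log2 fold change with LPS was 3.56 over the 18 genes with a match, 2.78 over the 22 with an entry and no match and 2.79 over the 12 without an entry. The median change with defactinib in WT was -3.06, -2.38 and -2.53 for the same sets, and all 22 genes with an entry and no match were called higher with LPS. Single genes went otherwise with defactinib in WT, with Bst2 at 0.44 among those with a match and Ifi27l2a at 0.89 among those without an entry. The difference between the sets was not tested.

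The IFIT proteins bind viral RNA that lacks the host cap methylation and keep it from translation, and their genes lie close together on chromosome 19, with Ifit1 at chr19:34640871-34650009, plus strand (mm10, as are all coordinates here). Ifit1 in WT was at 14.98, 14.3 and 17.4 CPM unstimulated, 2814, 2905 and 2682 with LPS and DMSO and 5.79, 3.49 and 30.8 with LPS and defactinib. Ifit1 in IRF5 KO was at 5.92, 5.87 and 5.64 CPM unstimulated, 11.1, 10.8 and 574 with LPS and DMSO and 17.6, 16.5 and 17.4 with LPS and defactinib. The 3 WT LPS DMSO libraries lay far above every other library, IRF5 KO LPS DMSO replicate 3 came next, and defactinib replicates 1 and 2 in WT lay below the unstimulated cells while replicate 3 lay above them. In IRF5 KO, LPS DMSO replicates 1 and 2 lay above the unstimulated and below the defactinib libraries.

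Ifit2 (chr19:34550694-34576419, plus strand), which differs from its neighbours in favouring cell death and in having no GAAANNGAAA letters here, in WT was at 25.95, 26.4 and 23.96 CPM unstimulated, 2792, 3068 and 2672 with LPS and DMSO and 14.4, 6.496 and 32.1 with LPS and defactinib. Ifit2 in IRF5 KO was at 11.02, 11.3 and 10.1 CPM unstimulated, 21.1, 22.003 and 539.7 with LPS and DMSO and 17.2, 15.5 and 16.1 with LPS and defactinib. As for Ifit1, the WT LPS DMSO libraries were highest and IRF5 KO LPS DMSO replicate 3 next, while IRF5 KO LPS DMSO replicates 1 and 2 lay above both the unstimulated and the defactinib libraries of IRF5 KO. Ifit3 (chr19:34583531-34588731, plus strand), which binds and steadies IFIT1 in humans, in WT was at 5.13, 5.598 and 5.01 CPM unstimulated, 272, 300.3 and 207 with LPS and DMSO and 3.02, 1.59 and 30.8 with LPS and defactinib, and its near copy Ifit3b followed it. Ifit3 in IRF5 KO was at 3.19, 4.73 and 3.52 CPM unstimulated, 3.93, 4.51 and 72.7 with LPS and DMSO and 3.92, 3.203 and 3.59 with LPS and defactinib. Of the 100-base windows of their exons, 31.7% in Ifit3 and 27.4% in Ifit3b had an identical copy in the other, so the split of reads between the pair is uncertain.

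Ifit1bl1 and Ifit1bl2 are rodent paralogs of Ifit1. Ifit1bl1 in WT was at 5.02, 5.06 and 4.17 CPM unstimulated, 323, 397 and 271 with LPS and DMSO and 1.02, 0.746 and 9.07 with LPS and defactinib. Ifit1bl1 in IRF5 KO was at 1.53, 2.06 and 0.964 CPM unstimulated, 0.267, 0.345 and 51.95 with LPS and DMSO and 0.558, 0.493 and 0.877 with LPS and defactinib. It had the widest gap between IRF5 KO LPS DMSO replicate 3 and the mean of replicates 1 and 2 of all 52 genes, a ratio of 170. Ifit1bl2 was at 5.57, 5.68 and 3.86 CPM in WT LPS DMSO and 0.121, 0.239 and 1.04 in IRF5 KO LPS DMSO. As a family the IFIT genes stood in WT defactinib libraries at medians of 0.501%, 0.420% and 3.82% of their WT LPS DMSO mean, the lowest shares of the 9 groups, and in IRF5 KO LPS DMSO at 0.568%, 0.785% and 20.5%.

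The OAS proteins make 2′-5′ oligoadenylates on meeting double-stranded RNA and so switch on RNase L, and of the OAS-like proteins of the mouse Oasl1 lacks that activity while Oasl2 keeps it. Oasl1 (chr5:114923240-114937915, plus strand), which is known to hold back translation of the Irf7 message, in WT was at 11.4, 12.04 and 20.02 CPM unstimulated, 1624, 1735 and 1578 with LPS and DMSO and 6.46, 2.67 and 66.5 with LPS and defactinib. Oasl1 in IRF5 KO was at 4.13, 4.002 and 4.05 CPM unstimulated, 16.4, 17.5 and 382 with LPS and DMSO and 24.8, 27.7 and 24.99 with LPS and defactinib. All 6 IRF5 KO libraries given LPS, with DMSO or with defactinib, lay above the unstimulated ones, while defactinib replicates 1 and 2 of WT lay below theirs. Oasl1 also showed the largest ratio of WT to IRF5 KO without LPS among the 52 genes, 3.57 between group means.

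Oas1a (chr5:120896256-120907521, minus strand) in WT was at 57.3, 58.4 and 76.9 CPM unstimulated, 193, 206 and 162 with LPS and DMSO and 83.95, 62.1 and 252 with LPS and defactinib. Oas1a in IRF5 KO was at 41.4, 37.3 and 43.3 CPM unstimulated, 45.6, 45.1 and 65.1 with LPS and DMSO and 48.4, 46.6 and 49.4 with LPS and defactinib. Defactinib replicate 3 lay above all WT LPS DMSO libraries, replicate 1 just above the unstimulated cells and replicate 2 within their range. Exon windows of Oas1a were shared with Oas1g for 40.9% of their number, so its counts are uncertain. Oas3 in WT was at 35.03, 36.4 and 44.8 CPM unstimulated, 198, 210.0 and 143 with LPS and DMSO and 38.05, 22.5 and 333 with LPS and defactinib. Oasl2 (chr5:114896936-114912234, plus strand) in WT was at 36.1, 35.9 and 47.6 CPM unstimulated, 311, 413 and 214 with LPS and DMSO and 31.3, 13.8 and 290.4 with LPS and defactinib. Oasl2 in IRF5 KO was at 27.9, 27.4 and 27.1 CPM unstimulated, 15.4, 17.8 and 67.6 with LPS and DMSO and 15.997, 17.2 and 16.6 with LPS and defactinib. Both Oas3 and Oasl2 reached or passed the range of WT LPS DMSO in defactinib replicate 3. In WT defactinib replicate 3 the OAS genes stood at a median of 99.2% of the WT LPS DMSO mean, against 16.2% and 10.02% in replicates 1 and 2, and in IRF5 KO LPS DMSO replicate 3 at 22.4%, against 7.38% and 7.01%.

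The sensors read foreign RNA or DNA: Ifih1 encodes MDA5 and Ddx58 RIG-I, both of which signal through MAVS to more interferon, Dhx58 their relative LGP2, Eif2ak2 the kinase PKR, which stops translation, Zbp1 a receptor for Z-form nucleic acid that can start necroptosis, and Adar the enzyme that edits adenosine in double-stranded RNA and calms these sensors. Ifih1 (chr2:62595798-62646255, minus strand) in WT was at 47.6, 48.6 and 53.8 CPM unstimulated, 1565, 1849.7 and 1585 with LPS and DMSO and 37.9, 24.1 and 93.9 with LPS and defactinib. Ifih1 in IRF5 KO was at 34.5, 35.9 and 32.8 CPM unstimulated, 41.1, 37.9 and 439.9 with LPS and DMSO and 66.8, 62.9 and 65.4 with LPS and defactinib. The WT LPS DMSO libraries lay above all others, and IRF5 KO LPS DMSO replicate 3 came next. Eif2ak2 (chr17:78852564-78882573, minus strand) in WT was at 89.8, 91.4 and 94.6 CPM unstimulated, 304, 365 and 289 with LPS and DMSO and 73.5, 45.9 and 135 with LPS and defactinib. Eif2ak2 in IRF5 KO was at 76.1, 73.2 and 71.9 CPM unstimulated, 35.3, 36.2 and 104 with LPS and DMSO and 37.6, 33.3 and 37.2 with LPS and defactinib. Apart from replicate 3 of LPS DMSO, each IRF5 KO library given LPS held less Eif2ak2 than any unstimulated library.

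Znfx1 (chr2:167035793-167063015, minus strand), a mitochondrial sensor of double-stranded RNA, in WT was at 141, 145 and 145 CPM unstimulated, 828, 896 and 797 with LPS and DMSO and 26.2, 19.8 and 124 with LPS and defactinib. Znfx1 in IRF5 KO was at 122, 114 and 129.8 CPM unstimulated, 35.2, 35.8 and 285 with LPS and DMSO and 57.5, 61.9 and 58.3 with LPS and defactinib. Defactinib replicate 3 was the highest of its group in Znfx1 and still lay below the unstimulated WT cells. Zbp1 went otherwise in that library and was at 111, 116 and 72.6 CPM in WT LPS DMSO and 41.9, 29.4 and 199 in WT LPS defactinib libraries. The sensors stood at medians of 10.9%, 6.83% and 40.9% of their WT LPS DMSO mean in WT defactinib libraries, and at 6.90%, 7.50% and 30.1% in IRF5 KO LPS DMSO.

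Isg15 is a ubiquitin-like protein that is joined to newly made proteins, Uba7 is the activating enzyme of that chain, Herc6 the ligase of the mouse and Usp18 the protease that takes ISG15 off and also quiets the interferon receptor. Isg15 (chr4:156199424-156200818, minus strand) in WT was at 24.2, 24.2 and 34.5 CPM unstimulated, 1768, 1704 and 1663 with LPS and DMSO and 103, 67.5 and 235 with LPS and defactinib. Isg15 in IRF5 KO was at 11.8, 11.4 and 10.01 CPM unstimulated, 89.3, 84.9 and 404 with LPS and DMSO and 114, 109 and 108 with LPS and defactinib. All 12 libraries given LPS, with or without defactinib and in both genotypes, lay above the unstimulated libraries of their genotype. Per kilobase of exon it was the highest of the 52 in WT LPS DMSO, at a mean of 2264 CPM per kb, ahead of Rsad2 at 1232 and Ifit1 at 1054. Usp18 (chr6:121245906-121270917, plus strand) in WT was at 29.9, 30.1 and 35.4 CPM unstimulated, 464, 504 and 384 with LPS and DMSO and 12.4, 8.61 and 97.96 with LPS and defactinib. Usp18 in IRF5 KO was at 27.9, 38.4 and 29.6 CPM unstimulated, 18.2, 16.8 and 158 with LPS and DMSO and 16.8, 16.1 and 17.7 with LPS and defactinib. Defactinib replicates 1 and 2 in WT and 5 of the 6 IRF5 KO libraries given LPS held less Usp18 than the unstimulated cells.

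Among the direct effectors, Rsad2 encodes viperin, which makes a chain-ending nucleotide, and Cmpk2 is its neighbour, a nucleotide kinase of the mitochondrion. Rsad2 (chr12:26442753-26456452, minus strand) in WT was at 22.7, 21.1 and 22.5 CPM unstimulated, 5713, 5550.2 and 4733 with LPS and DMSO and 17.8, 7.68 and 109.9 with LPS and defactinib. Rsad2 in IRF5 KO was at 9.86, 12.4 and 10.8 CPM unstimulated, 14.6, 13.04 and 1134 with LPS and DMSO and 17.5, 16.7 and 18.01 with LPS and defactinib. It had the largest ratio of WT LPS DMSO to WT unstimulated means of the 52, 241, and IRF5 KO LPS DMSO replicate 3 alone was 103 times the IRF5 KO unstimulated mean. Cmpk2 in WT was at 14.7, 14.95 and 16.5 CPM unstimulated, 1899, 1961 and 1449.8 with LPS and DMSO and 6.53, 3.296 and 31.3 with LPS and defactinib. Cmpk2 in IRF5 KO was at 9.19, 8.35 and 8.34 CPM unstimulated, 2.93, 3.26 and 351 with LPS and DMSO and 3.62, 3.16 and 2.895 with LPS and defactinib. Unlike Rsad2, Cmpk2 lay below its unstimulated level in IRF5 KO LPS DMSO replicates 1 and 2 and in all 3 defactinib libraries of IRF5 KO.

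Mx1 and Mx2 are dynamin-like GTPases that trap incoming viral particles. Mx1 in WT was at 73.8, 75.8 and 99.1 CPM unstimulated, 1582, 1977 and 1169 with LPS and DMSO and 86.3, 62.9 and 204 with LPS and defactinib. Mx2 in WT was at 3.28, 3.06 and 4.45 CPM unstimulated, 296, 308 and 230.4 with LPS and DMSO and 4.86, 3.63 and 9.56 with LPS and defactinib. Mx2 in IRF5 KO was at 2.73, 3.002 and 2.32 CPM unstimulated, 2.54, 2.62 and 68.001 with LPS and DMSO and 1.85, 1.904 and 1.81 with LPS and defactinib. The LPS DMSO libraries of WT stood above all others for both. Bst2 (chr8:71534255-71537456, minus strand), or tetherin, which holds budding virus at the cell surface, in WT was at 96.995, 101 and 119 CPM unstimulated, 249, 234 and 195 with LPS and DMSO and 153, 184 and 582 with LPS and defactinib. Bst2 in IRF5 KO was at 102, 97.7 and 102 CPM unstimulated, 171, 174 and 130.4 with LPS and DMSO and 162, 173 and 157 with LPS and defactinib. Defactinib replicate 3 in WT held the highest Bst2 of all libraries, and it had the lowest ratio of IRF5 KO LPS DMSO replicate 3 to the mean of replicates 1 and 2, 0.756, where 49 of the 52 genes were above 1.

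The PARP group adds ADP-ribose to proteins or, as PARP9 with its partner DTX3L, marks them with ubiquitin. Parp14 (chr16:35832874-35871544, minus strand) in WT was at 146, 146 and 162 CPM unstimulated, 1644, 2076 and 1767 with LPS and DMSO and 49.2, 32.8 and 209 with LPS and defactinib. Parp14 in IRF5 KO was at 133, 132 and 133 CPM unstimulated, 26.2, 27.3 and 495 with LPS and DMSO and 34.7, 32.6 and 34.4 with LPS and defactinib. Parp14 lay at 3 levels, with WT LPS DMSO on top, IRF5 KO LPS DMSO replicate 3 and WT defactinib replicate 3 above the unstimulated cells, and the other 7 libraries given LPS below them. Parp12 (chr6:39086410-39118349, minus strand) in WT was at 52.7, 54.3 and 55.98 CPM unstimulated, 248, 304 and 202 with LPS and DMSO and 44.05, 37.3 and 136 with LPS and defactinib. Parp12 in IRF5 KO was at 38.6, 38.7 and 39.8 CPM unstimulated, 32.3, 32.7 and 64.1 with LPS and DMSO and 35.5, 38.3 and 35.96 with LPS and defactinib. The group stood at medians of 10.02%, 7.08% and 26.1% of the WT LPS DMSO mean in WT defactinib libraries and 9.58%, 9.80% and 34.7% in IRF5 KO LPS DMSO.

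TRIM proteins are ubiquitin ligases, of which TRIM25 acts on RIG-I, TRIM21 binds antibody-coated virus in the cytosol and TRIM30 is a mouse family that curbs NF-kB signalling. Trim25 (chr11:88999376-89020293, plus strand) in WT was at 125, 126 and 123 CPM unstimulated, 624, 660.1 and 606 with LPS and DMSO and 40.9, 35.01 and 118 with LPS and defactinib. Trim25 in IRF5 KO was at 129, 119.7 and 133 CPM unstimulated, 35.2, 32.3 and 226 with LPS and DMSO and 55.9, 55.3 and 56.04 with LPS and defactinib. Defactinib libraries of WT all lay below the unstimulated ones, replicate 3 included. Trim30a (chr7:104409025-104465193, minus strand) in WT was at 83.03, 81.3 and 79.3 CPM unstimulated, 433, 518 and 364 with LPS and DMSO and 80.5, 45.6 and 228 with LPS and defactinib. Trim30a in IRF5 KO was at 81.7, 86.4 and 77.9 CPM unstimulated, 44.95, 48.3 and 134 with LPS and DMSO and 42.8, 35.9 and 41.5 with LPS and defactinib. Only replicate 3 of LPS DMSO lay above the unstimulated range of Trim30a in IRF5 KO. Trim21 in WT was at 13.9, 14.8 and 12.001 CPM unstimulated, 154, 160.4 and 123 with LPS and DMSO and 1.9999, 1.71 and 6.99 with LPS and defactinib. With 1.74, 1.96 and 45.8 CPM in IRF5 KO LPS DMSO against 15.9, 16.8 and 15.7 unstimulated, Trim21 had the lowest ratio of the 52 between replicates 1 and 2 and the unstimulated mean, 0.115.

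Pml builds nuclear bodies that silence viral DNA, Sp100 is a constant part of them and Daxx a histone chaperone within them. Sp100 (chr1:85649988-85709998, plus strand) in WT was at 77.4, 75.2 and 87.3 CPM unstimulated, 205, 233 and 174 with LPS and DMSO and 104, 69.4 and 270.0 with LPS and defactinib. Sp100 in IRF5 KO was at 66.6, 71.4 and 64.2 CPM unstimulated, 78.6, 77.3 and 87.4 with LPS and DMSO and 72.6, 66.05 and 74.8 with LPS and defactinib. Over all 9 IRF5 KO libraries Sp100 spanned only 64.2 to 87.4 CPM. Daxx (chr17:33909414-33915589, plus strand) in WT was at 43.4, 44.6 and 46.4 CPM unstimulated, 329, 362 and 299 with LPS and DMSO and 7.23, 7.27 and 24.9 with LPS and defactinib. Daxx in IRF5 KO was at 35.05, 32.9 and 33.7 CPM unstimulated, 13.6, 14.2 and 107 with LPS and DMSO and 19.3, 19.4 and 18.1 with LPS and defactinib. In contrast to Sp100, every defactinib library of either genotype held less Daxx than any unstimulated one.

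The 9 other genes include Helz2, a helicase, Ifi35, a partner of the STAT and NF-kB routes, Ifi44, and Ifi27l2a, a small membrane protein. Helz2 (chr2:181227615-181242027, minus strand) in WT was at 57.9, 62.4 and 73.3 CPM unstimulated, 1124, 1583 and 1222 with LPS and DMSO and 66.6, 61.6 and 372 with LPS and defactinib. Helz2 in IRF5 KO was at 70.9, 82.9 and 78.9 CPM unstimulated, 77.3, 80.01 and 445 with LPS and DMSO and 68.7, 74.9 and 66.7 with LPS and defactinib. For Helz2, defactinib replicate 3 of WT and LPS DMSO replicate 3 of IRF5 KO lay far above the unstimulated cells. Ifi35 (chr11:101448407-101458698, plus strand) in WT was at 41.03, 40.3 and 43.96 CPM unstimulated, 122, 134 and 111 with LPS and DMSO and 45.5, 48.6 and 94.8 with LPS and defactinib. Ifi44 in WT was at 3.56, 3.23 and 4.04 CPM unstimulated, 34.3, 45.6 and 26.8 with LPS and DMSO and 3.86, 1.88 and 62.1 with LPS and defactinib. Ifi44 in IRF5 KO was at 1.09, 1.21 and 0.944 CPM unstimulated, 0.751, 0.398 and 2.54 with LPS and DMSO and 0.749, 0.582 and 0.7703 with LPS and defactinib. Ifi44 had the largest ratio of WT defactinib replicate 3 to the mean of replicates 1 and 2, 21.7, and the lowest ratio of IRF5 KO LPS DMSO replicate 3 to the WT LPS DMSO mean, 0.0715. Ifi27l2a (chr12:103442167-103443680, minus strand) in WT was at 88.4, 84.2 and 113 CPM unstimulated, 147, 129 and 120.1 with LPS and DMSO and 125, 109 and 499 with LPS and defactinib. Ifi27l2a in IRF5 KO was at 63.3, 51.2 and 54.9 CPM unstimulated, 70.3, 70.4 and 65.2 with LPS and DMSO and 76.7, 77.6 and 81.9 with LPS and defactinib. It had the smallest ratio of WT LPS DMSO to WT unstimulated means, 1.39, and in defactinib replicate 3 of WT it was the member farthest above that LPS level, at 378% of it.

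**Figure D3:**
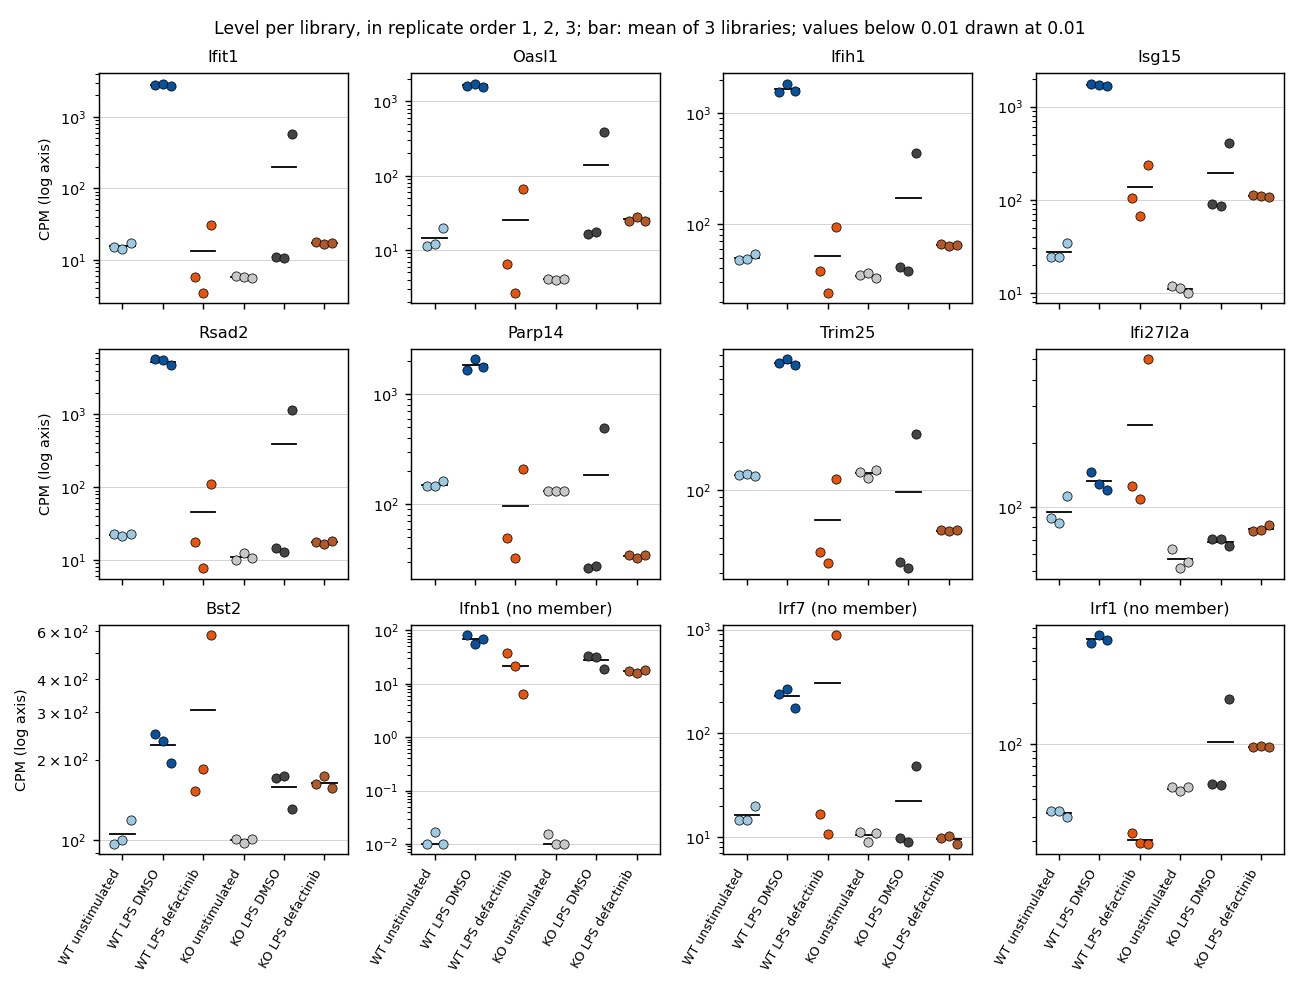
CPM per library on a log axis for 9 of the 52 genes and for Ifnb1, Irf7 and Irf1, which are no members. Each point is 1 library in 1 of the 6 groups, and values below 0.01 are drawn at 0.01. Ifit1 runs from 3.49 to 2905 CPM in WT libraries, Bst2 from 97.0 to 582, and the third IRF5 KO LPS DMSO point stands above the other 2 in most panels.

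Relative to the WT LPS DMSO mean of each gene, the median over the 52 genes was 12.97%, 13.7% and 15.1% in the WT unstimulated libraries, 8.24%, 5.38% and 34.1% in WT LPS defactinib, 11.02%, 10.4% and 10.5% in IRF5 KO unstimulated, 5.06%, 5.08% and 27.1% in IRF5 KO LPS DMSO and 5.56%, 5.80% and 5.39% in IRF5 KO LPS defactinib. Replicates 1 and 2 of WT LPS defactinib and of IRF5 KO LPS DMSO thus lay below their own unstimulated level on this measure and replicate 3 above it. In WT defactinib, 12, 6 and 44 of 52 genes were above every WT unstimulated library in replicates 1, 2 and 3, and in IRF5 KO LPS DMSO 13, 14 and 51 were above every IRF5 KO unstimulated library. WT defactinib replicate 3 exceeded the mean of replicates 1 and 2 more than 2-fold for all 52 genes, with medians of 8.49 for the OAS and 7.50 for the IFIT genes. IRF5 KO LPS DMSO replicate 3 did so for 41 of 52, with medians of 3.10 for the OAS and 38.8 for the IFIT genes. Oas1a, Oas3, Zbp1, Bst2, Sp100, Ifi44, Epsti1 and Ifi27l2a were higher in WT defactinib replicate 3 than in every WT LPS DMSO library. Between IRF5 KO LPS DMSO replicates 1 and 2 and the IRF5 KO defactinib mean, the median ratio over the 52 genes was 0.98.

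**Figure D4:**
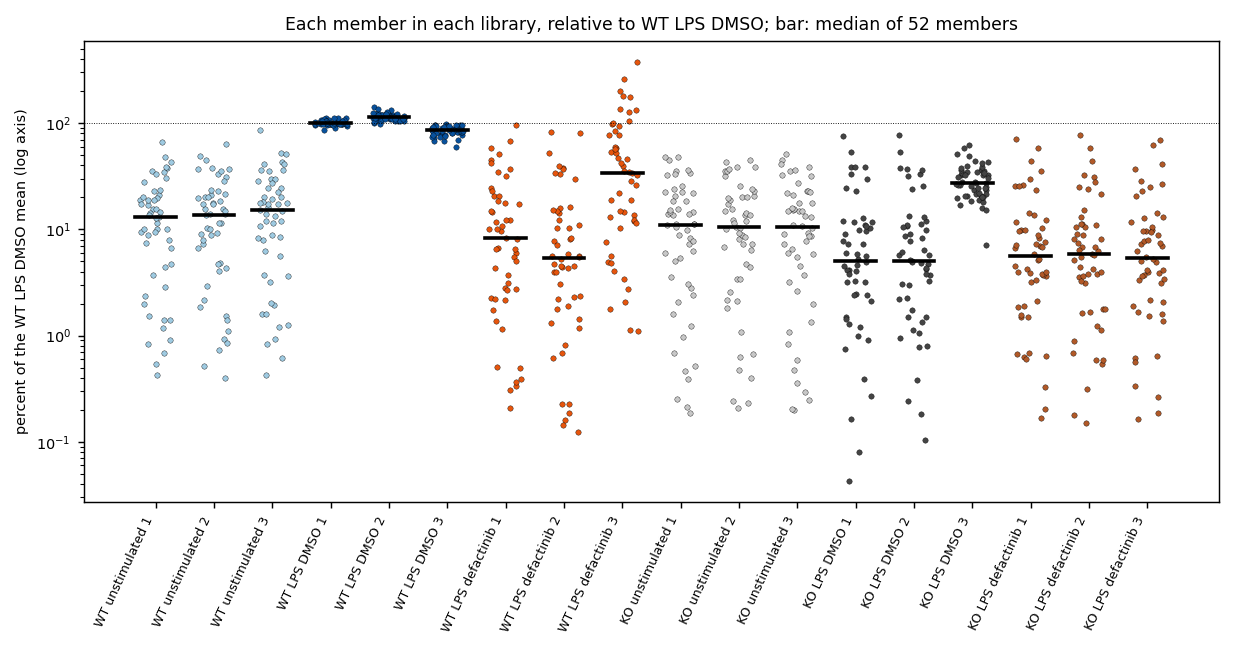
Each of the 52 genes in each of the 18 libraries as percent of its WT LPS DMSO mean (y axis, log scale), with a bar at the median of the 52 genes. The medians are 34.1% in WT LPS defactinib replicate 3 and 27.1% in IRF5 KO LPS DMSO replicate 3, against 5.06% to 8.24% in the other 2 libraries of those groups.

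The first comparison asked what LPS did in WT cells. Genes of every family rose, the IFIT genes most, with a median log2 fold change of 6.03 over the 6, and the MX and direct effectors next with 4.90 over 7. Rsad2 rose most of all (log2 fold change 7.91 ± 1.59 SE, adjusted p = 0.000897), followed by Ifit1 (7.49 ± 1.40, adjusted p = 0.000516), Cmpk2 (6.85 ± 1.51, adjusted p = 0.00186), Oasl1 (6.83 ± 1.34, adjusted p = 0.000762) and Ifit2 (6.80 ± 1.11, adjusted p = 0.000159). The OAS genes rose by a median of 2.58, with Oasl2 at 2.97 ± 0.84 (adjusted p = 0.0098) and Oas1a at 1.54 ± 0.36 (adjusted p = 0.00299). Among the sensors, of median 2.62, Ifih1 rose by 5.06 ± 0.82 (adjusted p = 0.000145), Znfx1 by 2.55 ± 0.73 (adjusted p = 0.011) and Eif2ak2 by 1.80 ± 0.38 (adjusted p = 0.00137). Isg15 rose by 5.95 ± 0.62 (adjusted p = 2.33e-06) and Usp18 by 3.82 ± 0.91 (adjusted p = 0.0031) in a family of median 3.58. All 5 PARP genes rose, with a median of 2.31 and Parp14 at 3.60 ± 0.94 (adjusted p = 0.006). All 4 TRIM genes rose, with a median of 2.47 and Trim25 at 2.34 ± 0.60 (adjusted p = 0.00554). The PML nuclear body genes had a median of 2.01, with Daxx at 2.88 ± 0.66 (adjusted p = 0.00235) and Sp100 at 1.35 ± 0.33 (adjusted p = 0.00359). Among the 9 other genes, of median 2.75, Helz2 rose by 4.34 ± 0.74 (adjusted p = 0.000249). Ifi27l2a was the 1 gene not called, at 0.47 ± 0.39 (adjusted p = 0.371), although its groups did not overlap, and Bst2 passed narrowly at 1.10 ± 0.35 (adjusted p = 0.0187). Over the 52 genes the median was 2.84 and the range 0.47 to 7.91, against a median of -0.00 over all genes tested.

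The second comparison asked what the inhibitor did to the LPS response in WT cells. With defactinib the median change over the 52 genes was -2.44, with a range from -7.71 to 0.89, against a median of 0.09 over all genes tested. All 6 IFIT genes fell, with a median of -6.08, led by Ifit1 (log2 fold change -7.71 ± 1.42 SE, adjusted p = 0.000347) and Ifit2 (-7.33 ± 1.14, adjusted p = 8.22e-05). Of the 7 MX and direct effectors 6 fell, of median -3.74, with Rsad2 at -6.89 ± 1.52 (adjusted p = 0.00139), and Bst2 was the exception at 0.44 ± 0.34 (adjusted p = 0.285). Of the 8 sensors 7 fell, of median -2.37, with Ifih1 at -5.00 ± 0.81 (adjusted p = 0.000125) and Znfx1 at -3.90 ± 0.78 (adjusted p = 0.000667), and Zbp1 did not pass. All 4 TRIM genes fell, of median -2.65, with Trim21 at -5.36 ± 1.02 (adjusted p = 0.000449) and Trim25 at -3.29 ± 0.63 (adjusted p = 0.000467). Of the PARP genes 4 of 5 fell, with Parp14 at -4.24 ± 0.97 (adjusted p = 0.00181) and Parp10 as the exception. Isg15 fell (-3.66 ± 0.55, adjusted p = 6.44e-05), and so did Daxx (-4.65 ± 0.72, adjusted p = 7.6e-05).

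Of the 6 OAS genes 2 were called with defactinib in WT. Oasl1 fell (log2 fold change -6.03 ± 1.29 SE, adjusted p = 0.00113) and Oas2 fell, while Oas1a (-0.50 ± 0.36, adjusted p = 0.245), Oas3 (-0.49 ± 0.67, adjusted p = 0.55), Oas1g and Oasl2 did not pass. Uba7, Sp100 (-0.47 ± 0.32, adjusted p = 0.227), Ifi44 (-0.65 ± 0.86, adjusted p = 0.53), Ifi35, Phf11d and Epsti1 did not pass either. Bst2 and Ifi27l2a (0.89 ± 0.40, adjusted p = 0.0678) were the genes with a positive change. With WT defactinib replicate 3 left out, 49 of 52 genes fell (19.4% of all genes called lower in that fit), with a median of -3.83, and 38 of the 51 genes that rose with LPS in WT were called lower with all libraries kept. Against WT unstimulated cells, those given LPS and defactinib had 11 genes higher (9.10% of all genes called higher) and 1 lower (15.8% called lower). The 11 were Oas1a, Oas3, Zbp1, Isg15, Uba7, Herc6, Isg20, Bst2, Ifi44, Epsti1 and Ifi27l2a, led by Ifi44 (log2 fold change 2.65 ± 0.92 SE, adjusted p = 0.0251), and the 1 was Daxx (-1.77 ± 0.64, adjusted p = 0.0296). This list rests on replicate 3. Without it, Isg15 alone was called higher (8.36% of all genes), at 1.64 (adjusted p = 0.0133), 9 genes were lower (15.8% of all genes called lower in that fit), among them Trim21 at -2.86 (adjusted p = 0.04), Rtp4 at -2.73 (adjusted p = 0.033) and Daxx at -2.61 (adjusted p = 0.00739), and Ifi44 was at -0.32 (adjusted p = 0.601). The median over the 52 genes went from 0.57 to -0.64. Without both libraries that stand apart still more genes were called lower, as given in the last section. Without WT unstimulated replicate 1 or 2 the count of higher genes was 7 (7.74% or 7.59% of all genes), and without WT LPS defactinib replicate 2 it was 17 (9.15%).

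The third comparison set WT against the libraries labelled IRF5 KO after LPS. The WT level was higher for all 6 IFIT, 6 OAS, 8 sensor, 4 ISG15 system, 5 PARP, 4 TRIM and 3 PML nuclear body genes, for 6 of 7 MX and direct effectors and for 8 of 9 others, and Bst2 (0.51 ± 0.34, adjusted p = 0.223) and Ifi27l2a (0.94 ± 0.40, adjusted p = 0.0585) did not pass. With only the compared groups in the fit fewer genes were called, as given in the last section. The median log2 difference was 2.89, with a range from 0.51 to 4.81, against -0.05 over all genes tested. The largest was Ifi44 (log2 fold change 4.81 ± 1.03 SE, adjusted p = 0.00139). Differences in Ifit1 (3.82 ± 1.18, adjusted p = 0.0142), Rsad2 (3.78 ± 1.31, adjusted p = 0.0251) and Oasl1 (3.57 ± 1.15, adjusted p = 0.0174) had wide errors. Tighter ones were Parp12 (2.55 ± 0.40, adjusted p = 0.000109), Isg15 (3.15 ± 0.54, adjusted p = 0.00025) and Ifih1 (3.27 ± 0.75, adjusted p = 0.00226). Family medians were 3.60 for the IFIT, 3.50 for the MX and direct effector and 3.15 for the OAS genes, and 2.34 for the PML nuclear body genes. Without IRF5 KO LPS DMSO replicate 3 the median over the 52 genes was 4.27. Replicate 3 taken alone stood at a median of 0.271 of the WT LPS DMSO mean, from 0.0715 (Ifi44) to 0.616 (Parp10), and all 52 genes were lower in it than in any WT LPS DMSO library.

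**Figure D5:**
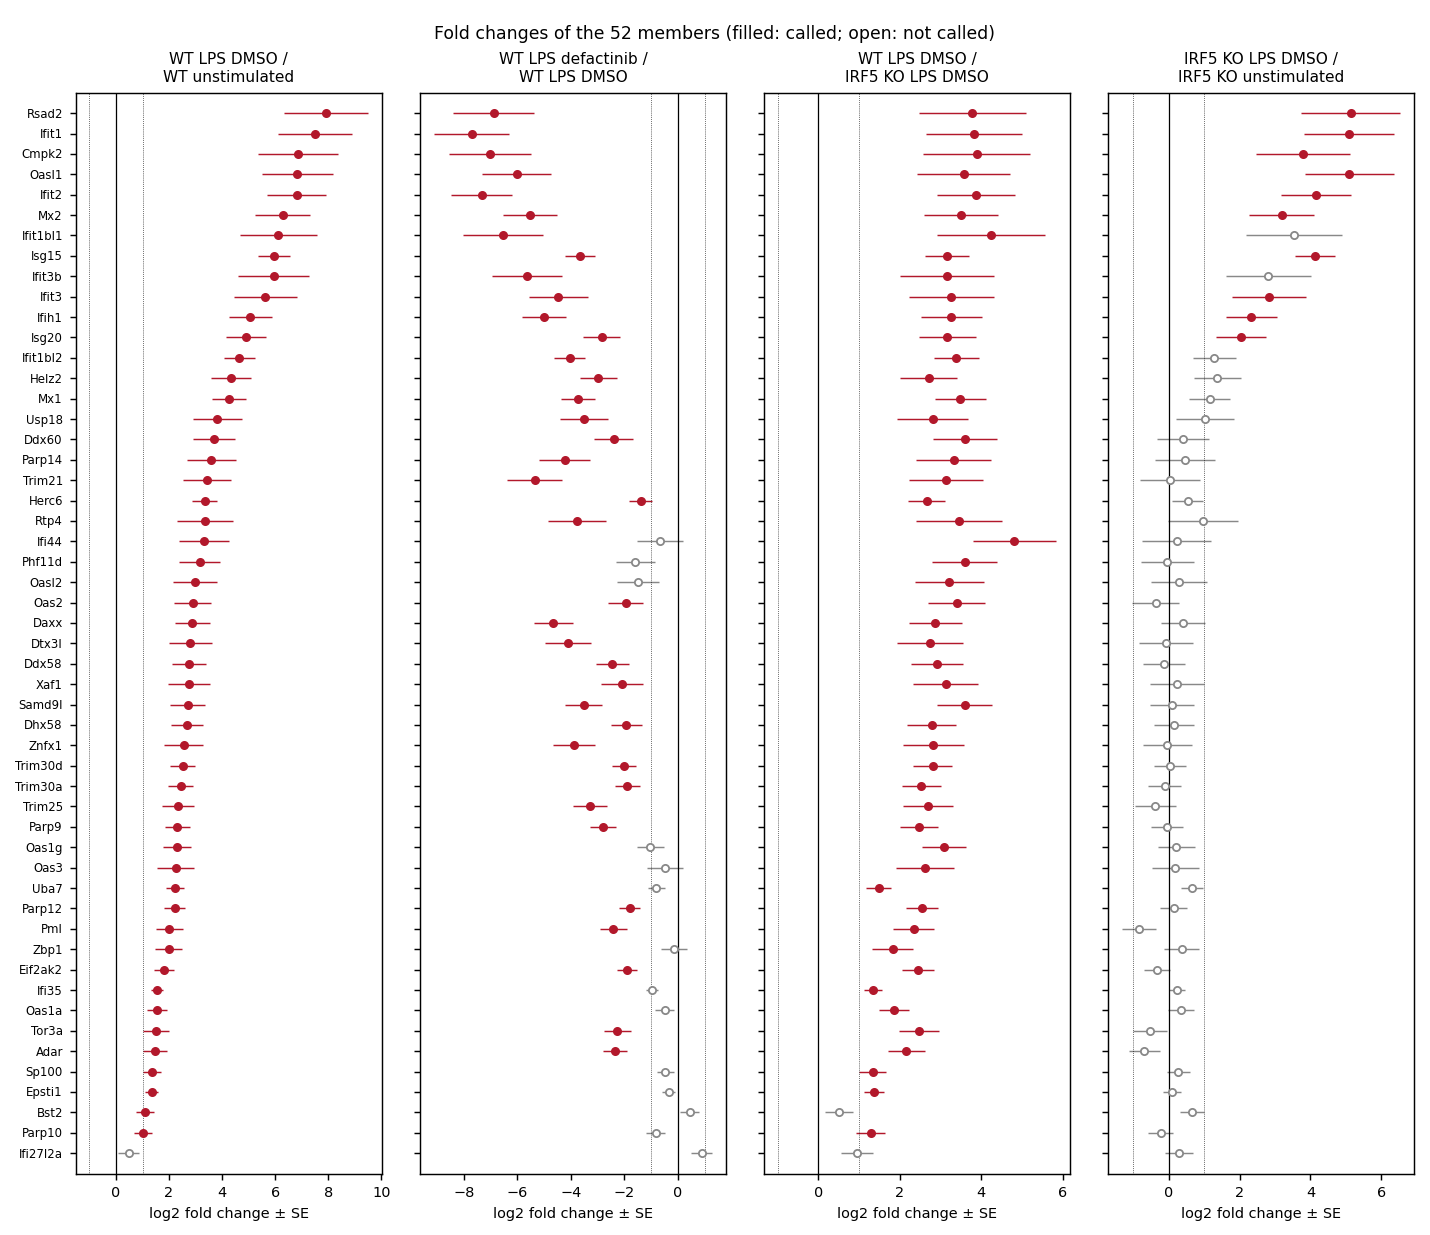
Log2 fold change ± SE of the 52 genes (rows, ordered by the LPS response in WT) in 4 comparisons with 3 libraries a group; filled points are called, open points are not, and dotted lines mark a 2-fold change. The 51 filled points of the first panel lie to the right, the 38 of the second to the left, and 10 are filled in the last.

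Without LPS no gene of the 52 was called between the genotypes by edgeR with all 6 groups in the fit (3.80% of all genes called higher and 3.51% lower in WT), 1 of 52 had an unadjusted p under 0.05 (26.4% of all genes), Isg15 (log2 fold change 1.32 ± 0.51 SE, adjusted p = 0.105), and DESeq2 called 1 (4.17% of all genes called higher). With only the 2 unstimulated groups in the fit 9 were called higher in WT (5.11% of all genes). The groups were apart without overlap for 30 genes higher in WT (24.8% of all genes) and 2 lower (26.5%). The median log2 difference was 0.31, and Oasl1 had the largest at 1.83 ± 1.11 (adjusted p = 0.334). Without both libraries that stand apart, which belong to neither unstimulated group but enter the shared estimate of spread, 9 were called higher in WT (4.90% of all genes): Ifit1, Ifit2, Ifit1bl1, Oas1g, Oasl1, Isg15, Rsad2, Rtp4 and Ifi44.

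In IRF5 KO cells, with the doubt about the label of replicates 1 and 2 given above, the difference between LPS DMSO and unstimulated libraries was called in few genes and depended on replicate 3. With all 3 libraries, Ifit1 (5.09 ± 1.27, adjusted p = 0.00846), Oasl1 (5.09 ± 1.25, adjusted p = 0.00806), Rsad2 (5.14 ± 1.40, adjusted p = 0.0131), Isg15 (4.12 ± 0.57, adjusted p = 0.000317), Ifih1 (2.33 ± 0.72, adjusted p = 0.0226), Ifit2, Ifit3, Mx2, Cmpk2 and Isg20 rose, and no PARP, TRIM, PML nuclear body or other gene did. The median over the 52 was 0.29 against 0.01 over all genes, 13 had an unadjusted p under 0.05 (25% of the 52 against 48.8% of all genes), and for 12 the groups did not overlap (2598 of 15663 genes higher without overlap). Without replicate 3 Isg15 alone rose, at 2.97 (adjusted p = 1.71e-05), and 11 genes fell: Eif2ak2, Adar, Znfx1, Samd9l, Dtx3l, Parp14, Trim21, Trim25, Pml, Daxx and Tor3a. Trim21 fell most, at -3.12 (adjusted p = 0.000105), and Parp14 was at -2.32 (adjusted p = 0.00588). The values of Ifit1 (0.91, adjusted p = 0.247), Oasl1 (2.06, adjusted p = 0.0759) and Rsad2 (0.33, adjusted p = 0.741) were positive without passing, and the median became -0.66. Over all genes, that setting called 9.64% higher and 16.6% lower. Leaving out an unstimulated library of IRF5 KO gave 4 to 6 genes higher (5.08% to 5.96% of all genes), and no filter gave 6 (3.96%). With only these groups in the fit no gene of the 52 was called (0.824% of all genes called higher). Replicate 3 alone was above the IRF5 KO unstimulated mean by a median ratio of 2.34, from 1.08 (Pml) to 103 (Rsad2).

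Defactinib in IRF5 KO cells lowered 2 of 52 genes (0.760% of all genes called lower), Mx2 (log2 fold change -3.72 ± 0.95 SE, adjusted p = 0.0481) and Ifit1bl2 (-3.18 ± 0.74, adjusted p = 0.0357). The median over the 52 was -1.02 against -0.04 over all genes, and 23 had an unadjusted p under 0.05 (44.2% of the 52 against 23.3% of all genes). Ifit1 was at -3.53 ± 1.17 (adjusted p = 0.0942). Without IRF5 KO LPS DMSO replicate 3 no gene passed in edgeR, the median was 0.026, Mx2 was at -0.48 (adjusted p = 0.438) and Ifit1 at 0.65 (adjusted p = 0.591). The lower level with defactinib in IRF5 KO thus depended on replicate 3 being kept. Without it the LPS DMSO side held only replicates 1 and 2, whose label is in doubt as given above. DESeq2 with all libraries called 11 lower (3.07% of all genes called lower), and without replicate 1 or replicate 2 of IRF5 KO LPS DMSO edgeR called 13 or 12 (5.16% or 5.28% of all genes). Against unstimulated IRF5 KO cells, those given LPS and defactinib held more Isg15 (3.31 ± 0.55, adjusted p = 0.000285), the 1 gene called higher (7.85% of all genes), and less Eif2ak2, Adar, Dtx3l, Trim21 (-2.83 ± 0.93, adjusted p = 0.019), Pml and Tor3a, the 6 called lower (16.2% of all genes). Neither of these groups holds a library that stands apart, but those libraries enter the shared estimate of spread. With any 1 library left out the counts ran from 1 to 3 higher and from 3 to 12 lower. Other fits moved them further, as given in the last section.

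With LPS and defactinib in both genotypes, 22 of 52 genes were higher in WT than in IRF5 KO (8.45% of all genes called higher), among them 5 of 6 OAS, 4 of 8 sensor and 6 of 9 other genes, led by Ifi44 (log2 fold change 5.01 ± 1.06 SE, adjusted p = 0.00184). Of the IFIT genes 1 was called, Ifit1bl2. Without WT defactinib replicate 3 the 1 gene called was Ifi44, at 2.04 (adjusted p = 0.00818), where 7.35% of all genes were called higher, and the median went from 1.37 to 0.35. Without IRF5 KO defactinib replicate 1 or 2 the count was 14 or 12 (7.01% or 7.53% of all genes).

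Whether the effects themselves differed between the genotypes was tested as a difference of log2 fold changes, WT minus IRF5 KO. The rise with LPS was larger in WT for 20 of 52 genes (6.33% of all genes), among them 5 of 8 sensors, 3 of 4 TRIM genes and 1 of 6 IFIT genes. Uba7, Herc6, Mx1, Parp9 and Parp12 were in that list, and Ifit1, Oasl1 and Rsad2, which rose in both genotypes with all libraries kept, were not. The fall with defactinib was larger in WT for 11 genes (12.3% of all genes): Ifit1 (-4.18 ± 1.57, adjusted p = 0.0482), Ifit2 (-3.75 ± 1.27, adjusted p = 0.0304), Ifih1 (-3.59 ± 1.00, adjusted p = 0.0112), Daxx (-3.40 ± 0.90, adjusted p = 0.00806), Znfx1 (-2.89 ± 1.00, adjusted p = 0.0342), Isg15 (-2.85 ± 0.72, adjusted p = 0.00602), Trim25, Samd9l, Mx1, Parp9 and Parp12. None of the 6 OAS genes was among them. With both libraries that stand apart left out, IRF5 KO LPS DMSO holds only replicates 1 and 2, whose label is in doubt. In that fit 50 genes passed for LPS (17.2% of all genes) and 49 for defactinib (20.6% of all genes). Both counts moved with most single libraries left out, from 8 (4.40% of all genes) to 45 (16.5%) for LPS and from 3 (10.2% to 11.1%) to 38 (13.3%) for defactinib. They were highest without IRF5 KO LPS DMSO replicate 3 for LPS and without WT LPS defactinib replicate 3 for defactinib.

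The genes upstream of the 52 were taken from lists of 39 pathway genes, 35 of which could be tested, 17 rising and 2 falling with LPS in WT, where 11.6% of all genes rose and 9.71% fell, and 1 rising and 22 falling with defactinib, where 10.4% rose and 18.6% fell. Without WT defactinib replicate 3, 24 fell with defactinib (19.4% of all genes called lower in that fit). Ifnb1, the gene of interferon beta and the first signal of the loop, in WT was at 0, 0.0169 and 0 CPM unstimulated, 81.9, 54.5 and 69.1 with LPS and DMSO and 37.7, 21.8 and 6.42 with LPS and defactinib. Ifnb1 in IRF5 KO was at 0.0156, 0 and 0 CPM unstimulated, 32.8, 32.2 and 18.6 with LPS and DMSO and 17.6, 15.6 and 18.03 with LPS and defactinib. Every library given LPS held Ifnb1 and none of the unstimulated ones held more than 0.0169 CPM, and WT defactinib replicate 3, high in the 52 genes, was the lowest of the LPS libraries of WT in Ifnb1. Ifnb1 fell with defactinib in WT (-1.64 ± 0.42, adjusted p = 0.00415), was higher in WT than in IRF5 KO after LPS (1.30 ± 0.42, adjusted p = 0.0175) and in IRF5 KO did not pass with defactinib (-0.70 ± 0.42, adjusted p = 0.323). Without IRF5 KO LPS DMSO replicate 3 the difference between the genotypes was 1.08 (adjusted p = 0.0615) and did not pass, and without both libraries that stand apart it was 1.08 (adjusted p = 8.23e-05). IRF5 KO LPS DMSO replicate 3, high in the 52 genes within its group, was likewise the lowest of its 3 libraries in Ifnb1.

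Of the receptor chains, Ifnar1 was not called with LPS in WT (0.28 ± 0.35, adjusted p = 0.568) and fell with defactinib (-1.56 ± 0.36, adjusted p = 0.00196), and Ifnar2 stayed under the 2-fold limit in both. Stat2 and Irf9, of the complex that binds the ISRE, both rose with LPS in WT, Stat2 at 1.95 ± 0.46 (adjusted p = 0.0028) and Irf9 at 1.62 ± 0.60 (adjusted p = 0.0425). With defactinib Stat2 (-2.01 ± 0.46, adjusted p = 0.00174) and Irf9 (-2.68 ± 0.63, adjusted p = 0.00217) fell. In IRF5 KO neither was called with LPS (Stat2 0.04, Irf9 -0.49), while without IRF5 KO LPS DMSO replicate 3 Irf9 was lower than unstimulated, at -2.10 (adjusted p = 0.000749), and Stat2 was at -0.70 (adjusted p = 0.174). After LPS both were higher in WT with and without that library. Without WT defactinib replicate 3, the changes with defactinib were -2.82 for Stat2 (adjusted p = 6.94e-05) and -3.47 for Irf9 (adjusted p = 0.000866). Socs1, a brake on the receptor's kinases, fell with defactinib in WT (-4.85 ± 0.87, adjusted p = 0.000287).

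Irf7, the factor that widens the interferon response and is itself interferon-induced, in WT was at 14.5, 14.7 and 20.02 CPM unstimulated, 240.3, 268 and 174 with LPS and DMSO and 16.7, 10.7 and 885 with LPS and defactinib. Irf7 in IRF5 KO was at 11.3, 9.08 and 10.9 CPM unstimulated, 9.77, 8.99 and 48.3 with LPS and DMSO and 9.79, 10.3 and 8.63 with LPS and defactinib. Like Ifi27l2a and Bst2, it was above every WT LPS DMSO library in WT defactinib replicate 3, and its change with defactinib did not pass (0.42 ± 1.08, adjusted p = 0.756). Without that library Irf7 fell with defactinib, at -4.04 (adjusted p = 0.000143). Irf1, an early factor that LPS turns on through NF-kB, in WT was at 32.8, 32.8 and 29.8 CPM unstimulated, 543, 622 and 569.9 with LPS and DMSO and 22.8, 19.1 and 18.96 with LPS and defactinib. Irf1 in IRF5 KO was at 48.9, 45.6 and 49.2 CPM unstimulated, 51.4, 50.5 and 213 with LPS and DMSO and 96.1, 98.1 and 95.6 with LPS and defactinib. WT defactinib replicate 3 did not stand apart in Irf1, which fell with defactinib in WT at -4.83 ± 0.45 (adjusted p = 6.89e-07), while IRF5 KO LPS DMSO replicate 3 did.

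Set beside the 52 genes, the 25 early NF-kB genes, which LPS induces without interferon, rose in 23 cases in WT and 17 in IRF5 KO, where 11.6% and 7.07% of all genes rose. With defactinib in WT 2 of them rose and 15 fell, where 10.4% and 18.6% of all genes did, and 18 fell without WT defactinib replicate 3 (19.4% of all genes). The 15 GBP and IRG genes, interferon-induced GTPases that act on bacteria and parasites, rose in 14 cases in WT and 1 in IRF5 KO, and with defactinib in WT 1 rose and 11 fell, or 0 and 14 without that library, against the same shares of all genes. Without IRF5 KO LPS DMSO replicate 3, 17 early NF-kB genes rose and 1 fell in IRF5 KO, and 1 GBP or IRG gene rose and 4 fell (9.64% and 16.6% of all genes). After LPS 14 of the 15 GBP and IRG genes and 9 of the 25 early NF-kB genes were higher in WT than in IRF5 KO, beside 50 of the 52, and 4 early NF-kB genes were lower (14% of all genes higher and 11.8% lower). Of the 25 early NF-kB genes, 13 were higher and 12 lower in IRF5 KO LPS DMSO replicate 3 than in both replicates 1 and 2. No test of the difference between the sets was made.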

How the data were processed

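RNA of mouse bone marrow-derived macrophages was sequenced as paired-end reads in 18 libraries, 3 in each of 6 groups named by the labels. Per the labels and the study's methods, the authors aligned reads to mm10 with STAR, counted uniquely mapped pairs per Ensembl gene with featureCounts (version 1.6.3 in the table's header), reverse stranded, and deposited raw counts, and they used DESeq2 for their own tests. Unique counting can lower genes with near-identical copies, and 5 of the 52 members shared over 10% of their 100-base exon windows with another gene (Ifit3, Ifit3b, Oas1a, Oas1g and Herc6), while Herc6 and Rtp4 had over 10% of their exonic bases in exons of other genes on the same strand, and Uba7, Parp10 and Sp100 had less.

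The counts were tested as deposited with edgeR 4.0.16 in R 4.3.3, by quasi-likelihood with TMM scaling, filtering by group, 1 design over all 6 groups and no replicate block, two-sided, with Benjamini-Hochberg adjustment over 15663 genes. Genes were called at an adjusted p under 0.05 and an absolute log2 fold change over 1. SE is the fold change divided by the root of F. CPM are counts per 1000000 of the TMM-scaled library size, and shares of a library are of its deposited counts. A prior count of 2 was used for the log2 CPM of single libraries. Fold changes came from edgeR's fit, to which that prior count was not given. At 39282181 to 61949143 assigned pairs a library, the chi-square per gene between replicates of a group ran from 2.33 (IRF5 KO LPS DMSO 1 and 2) to 441, where counting error alone gives about 1. Effects were compared between genotypes by interaction contrasts. Genes were named by rule: in each family the 2 members of highest mean level per kb, or 3 in families of 6 or more, the largest rise and fall of each comparison, members against the direction of most, members not called with LPS in WT, the targeted genes, and Ifnb1, Ifnar1, Ifnar2, Stat2, Irf9, Irf7, Irf1 and Socs1. Other genes are named to spell out counts or contrasts and were chosen after their values were seen. 1 gene of the rule is not reported here. The members and lists were chosen with earlier results of these data known. The script was tested on simulated data. Alternatives were library-size and DESeq2 (1.42.0) size-factor scaling, no filter, a replicate block, the groups of a comparison alone, DESeq2's own test and leaving out each library. Leaving out both libraries that stand apart, and leaving out each for the upstream genes and comparison lists, was added after seeing the data.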

Additional observations from a re-analysis of the deposited data

Results flagged for a closer look

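Effects that differed between the genotypes, by the test of the difference itself (edgeR's quasi-likelihood test, adjusted p under 0.05 and over 2-fold), drew attention in both arms of the study. The rise with LPS was larger in WT for 20 of the 52 genes (6.33% of all genes), and the largest difference among them was that of Ifit1bl2, at 3.36 ± 0.83 (SE, adjusted p = 0.0133). Every one of the 3 WT LPS DMSO libraries held more Ifit1bl2 than any IRF5 KO LPS DMSO library.

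The fall with defactinib was larger in WT for 11 of the 52 genes (12.3% of all genes). The difference for Ifit1 was -4.18 ± 1.57 (SE, adjusted p = 0.0482), for Znfx1 -2.89 ± 1.00 (adjusted p = 0.0342) and for Daxx -3.40 ± 0.90 (adjusted p = 0.00806). Replicate 3 of IRF5 KO LPS DMSO and replicate 3 of WT LPS defactinib, which stand apart from their groups, enter these differences, and their part was not tested beyond leaving them out, which gave 50 genes for LPS (17.2% of all genes) and 49 for defactinib (20.6%). Those counts use only replicates 1 and 2 of IRF5 KO LPS DMSO, whose label is in doubt. Other fits gave fewer: no filter gave 5 for LPS (2.55% of all genes) and 3 for defactinib (6.65%), library-size scaling 4 for defactinib (8.17%), the compared groups alone 3 for defactinib (10.4%), and leaving out single libraries down to 8 and 3.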

How the results depend on the processing

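Counts in this section are of the 52 genes, mostly without the share of all genes called in the same fit. That share moved with the fit as well, so a count alone does not tell whether the 52 differ from all genes. Among the 52 genes, the rise with LPS in WT held at 46 to 51 genes with any 1 library left out, the fall with defactinib in WT at 34 to 49 (0 to 1 higher) and the excess of WT over IRF5 KO after LPS at 44 to 50, and at 32 with only those groups in the fit. In IRF5 KO, genes higher with LPS ranged from 1 to 12 and lower from 0 to 11, and genes lower with defactinib from 0 to 13. Leave-one-out ranges were 0 to 2 for the genotypes without LPS, 1 to 29 for WT over IRF5 KO with defactinib, 1 to 17 higher and 0 to 9 lower for WT with defactinib over unstimulated, 1 to 3 higher and 3 to 12 lower for the same in IRF5 KO, 8 to 45 for the LPS interaction and 3 to 38 for the defactinib interaction.

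Library-size scaling, which shifted the median of all genes by -0.38 for LPS in WT, 0.29 for defactinib in WT and 0.45 for the defactinib interaction and split their calls 1295 higher to 2834 lower for LPS and 2350 to 2426 for defactinib in WT, gave 1 higher with defactinib in WT, 14 lower in IRF5 KO with defactinib over unstimulated and 4 for the defactinib interaction. With no filter the counts were 1 lower with defactinib in IRF5 KO, 12 for WT over IRF5 KO with defactinib, 3 for the defactinib and 5 for the LPS interaction, 6 higher with LPS in IRF5 KO, 3 lower in IRF5 KO and 6 higher and 0 lower in WT with defactinib over unstimulated. With only the groups compared they were 0 lower with defactinib in IRF5 KO, 5 for WT over IRF5 KO with defactinib, 9 without LPS, 3 for the defactinib interaction, 0 with LPS in IRF5 KO, 3 higher and 21 lower in IRF5 KO and 5 higher and 2 lower in WT with defactinib over unstimulated. DESeq2, which gave no adjusted p for 8 of the 52 genes, called 11 lower with defactinib in IRF5 KO and 1 without LPS.

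The replicate numbers did not pair the samples (45 same-number pairs, median correlation 0.005, 4 above 0.1). The replicate block gave 1 lower with defactinib in IRF5 KO, 18 for the defactinib and 34 for the LPS interaction, 2 higher in IRF5 KO and 7 higher and 3 lower in WT with defactinib over unstimulated.

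Without both libraries that stand apart the counts were 0 lower with defactinib in IRF5 KO, 5 higher and 5 lower for WT over IRF5 KO with defactinib, 9 without LPS, 49 and 50 for the defactinib and LPS interactions, 3 higher and 18 lower with LPS in IRF5 KO, 3 higher and 21 lower in IRF5 KO and 1 higher and 21 lower in WT with defactinib over unstimulated. Signs reversed only with these libraries out: Ifit1 with defactinib in IRF5 KO ran from -4.11 to 0.65 with any 1 library out and the median of the 52 from -1.39 to 0.026 (0.65 and 0.025 without both), the median with LPS in IRF5 KO from -0.66 to 0.59, and in WT with defactinib over unstimulated Ifi44 from -0.32 to 3.21 and the median from -0.64 to 0.85 (-0.33 and -0.65 without both). Of 1566 values of single genes and medians under the alternatives, 1444 kept direction and call, 95 lost the call, 8 gained it, 9 moved by more than the replicate spread and 10 reversed. The cause was not tested. Low genes such as Ifit1bl2 and Ifit3b are limited by their few counts.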
